A study of Mus musculus with 8 samples.

Results

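The T cell and cytotoxic lymphocyte genes described here are 36 genes of the 38355 in the count tables, taken from a list of gene names. That list was drawn up with earlier results of these data known. They encode the T cell receptor complex, its co-receptors and signalling enzymes, cytokine receptors, lineage transcription factors, receptors of natural killer (NK) cells, cytotoxic granule proteins and effector cytokines. Messenger RNA was sequenced from 8 whole colon tumours, each taken from a different mouse. All mice had received azoxymethane, a carcinogen that gives rise to colon tumours. In 4 mice the genotype was Trp53ΔIEC, meaning that the tumour suppressor gene Trp53 was removed in intestinal epithelial cells. The other 4 were Trp53ΔIECAktE17K: they lacked Trp53 in the same cells and carried in addition Akt E17K, a form of the kinase AKT that is constantly active. Every tumour compared here therefore lacked epithelial Trp53, and no untreated colon and no tumour with intact Trp53 is part of the comparison. The sources used here do not give the driver of the deletion and of the Akt allele, the age of the mice or the meaning of a letter in the sample titles (A for Trp53ΔIECAktE17K replicates 1 and 2, B for the other 6 tumours). The comparison asks what active AKT adds, in tumours that the series title places in a mesenchymal subtype of colorectal cancer.

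T cells recognise peptides through a receptor whose antigen-binding chains are held at the surface by the CD3 proteins. When it is engaged, the kinases LCK and ZAP70 and the adaptor LAT pass the signal on. Cytotoxic T cells and NK cells kill by releasing perforin, which opens the target cell's membrane, and granzymes, proteases that then enter it. Helper T cells act mainly through cytokines, and regulatory T cells, marked by FOXP3, hold the others back. In the colon these cells lie in the mucosa and between epithelial cells, and their numbers in a tumour can differ widely from one animal to the next.

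Between 18572180 and 26268547 reads per tumour were assigned to genes, and levels are given as CPM, read counts scaled to a common library size. All 10 colon epithelium markers were measured in every tumour, with summed levels of 9959 to 12414 CPM in Trp53ΔIEC and 5347 to 13044 CPM in Trp53ΔIECAktE17K. Trp53 itself stood at 20.8 to 25.8 CPM and 24.8 to 37.1 CPM in these groups, and Akt1 at 383 to 430 and 338 to 410 CPM. Whole tumours contain many cells that keep an intact Trp53, so these totals check neither allele. Of 13 lists of cell type markers, smooth muscle (6 of 6 tested genes), fibroblast (4 of 8), cardiac muscle (3 of 5) and endothelium (1 of 8) had genes called higher in the Akt group. Hepatocyte markers had 1 of 5 called lower, and the 8 lists for leukocytes and epithelium had 0 called in edgeR and 0 to 3 genes each at an unadjusted p under 0.05. Of these 8 lists DESeq2 called Xcr1, Epcam and Vil1 lower and Kit higher, and limma-voom called none.

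Of the 36 genes, 29 had enough reads to be tested, and 1 differed between the genotypes. Gzma, which encodes the protease granzyme A, was 10.2-fold higher in Trp53ΔIECAktE17K tumours by edgeR's quasi-likelihood test with Benjamini-Hochberg adjustment over 16539 genes (adjusted p = 0.0472). Of all genes tested 4.2% were called, 3.44% higher and 0.756% lower, so that 1 of 29 called higher and 0 called lower is near the share of all genes. At an unadjusted p under 0.05, Gzma was again the 1 gene of the 29, against 20.8% of all genes. DESeq2 and limma-voom also called Gzma and no other of the 29, while calling 12.1% and 3.31% of all genes. These genes varied widely among tumours of the same genotype. The pooled standard deviation of log2 CPM within the groups had a median of 1.14 over the 29 genes and of 0.37 over all tested genes, and of 0.58 over the 6222 tested genes in the same range of expression. In these bulk samples, fewer cells of a type and less RNA per cell cannot be told apart.

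**Figure D1:**
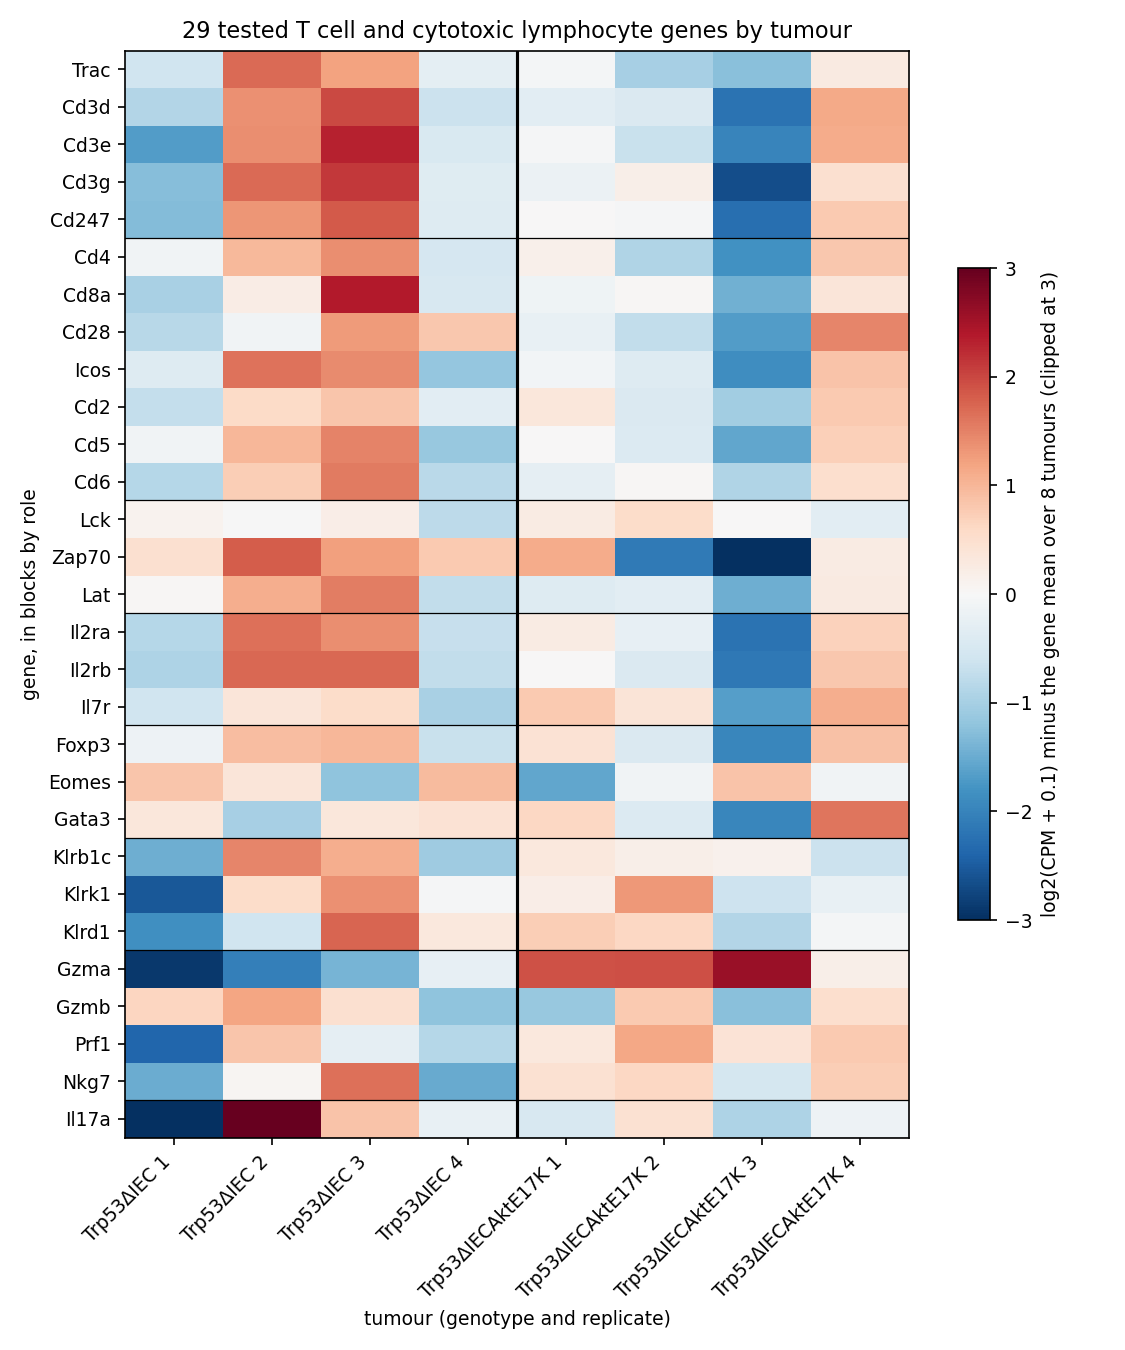
Levels of the tested T cell and cytotoxic lymphocyte genes (rows) in the 8 tumours (columns, by genotype and replicate), each cell coloured by log2(CPM + 0.1) minus the gene's mean over the 8 tumours, clipped at 3. Most rows share their high columns, Trp53ΔIEC replicates 2 and 3, and their low column, Trp53ΔIECAktE17K replicate 3, whereas the Gzma row is high in the Trp53ΔIECAktE17K columns.

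The T cell receptor complex had no member called out of 5 in edgeR, DESeq2 or limma-voom, with 0 at an unadjusted p under 0.05 and a median log2 fold change of -1.12. Cd3e (ENSMUSG00000032093), Cd3d and Cd3g encode the CD3 chains and lie side by side on chromosome 9. The annotated start sites of Cd3d and Cd3g are 1355 bases apart and point away from each other, and that of Cd3e is 27825 bases from that of Cd3d. The promoters of these 3 genes are shown because they had the same 3 highest tumours. Others of the 36 genes, among them Cd247, Cd4 and Foxp3, had those same highest tumours. Each is the 250 bases upstream of the start site on the gene's own strand, from RefSeq on GRCm38.p6, at chr9:45009612-45009861 (minus strand) for Cd3e, chr9:44981536-44981785 (plus strand) for Cd3d and chr9:44980432-44980681 (minus strand) for Cd3g. Capitals mark matches, on either strand, to 5 short motifs that lymphocyte transcription factors are known to bind. The RUNX family was searched with the letters TGTGGT, the core that its members share. For the ETS family, which is large and active in T cells, the letters were AGGAAG. The calcium-regulated NFAT factors were represented by GGAAAA. For AP-1, the dimer of FOS and JUN proteins, the letters were TGANTCA, where N stands for any base. The GATA family, to which GATA3 belongs, was searched with AGATAA.
Cd3e: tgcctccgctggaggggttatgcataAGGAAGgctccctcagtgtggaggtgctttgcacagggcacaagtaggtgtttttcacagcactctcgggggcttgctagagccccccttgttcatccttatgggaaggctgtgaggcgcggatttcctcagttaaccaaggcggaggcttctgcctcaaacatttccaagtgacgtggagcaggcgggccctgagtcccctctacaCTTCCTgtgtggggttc
Cd3d: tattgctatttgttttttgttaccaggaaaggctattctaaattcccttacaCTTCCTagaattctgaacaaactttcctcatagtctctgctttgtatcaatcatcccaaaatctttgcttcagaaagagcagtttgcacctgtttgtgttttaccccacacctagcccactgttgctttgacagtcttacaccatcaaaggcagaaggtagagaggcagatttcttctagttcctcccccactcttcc
Cd3g: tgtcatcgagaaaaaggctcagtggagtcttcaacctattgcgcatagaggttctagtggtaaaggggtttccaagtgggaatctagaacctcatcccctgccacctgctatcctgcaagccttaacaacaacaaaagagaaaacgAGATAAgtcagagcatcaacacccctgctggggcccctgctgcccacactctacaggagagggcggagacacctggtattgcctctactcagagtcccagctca
Cd3e held the ETS letters at 2 places and Cd3d at 1, and Cd3g held the GATA letters at 1. A stretch soon after the RefSeq start was found in 0 GENCODE transcripts of Cd3e, 1 of Cd3d and 2 of Cd3g. The Cd3e window also overlaps the Cd3e gene as GENCODE places it (to 45009627), so its matches depend on the RefSeq start. RefSeq promoters were found for 27 of the 36 genes, 32 promoters in all. The ETS letters were present in 17 of these (53.1%) and in 29.5% of all 32851 promoters, and the RUNX letters in 11 (34.4%) and in 14% of all. The NFAT, AP-1 and GATA letters were present in 15.6%, 6.25% and 9.38% of the 32 and in 20.4%, 6.75% and 9.99% of all. A match of letters describes the sequence and does not show that a factor binds there.

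Cd3e (GRCm38 chr9:44998740-45009627, minus strand) stood at 0.651, 6.13, 11.7 and 1.63 CPM in Trp53ΔIEC replicates 1 to 4 and at 2.24, 1.4, 0.504 and 5.08 CPM in Trp53ΔIECAktE17K replicates 1 to 4. Its levels spanned 23.3-fold over the 8 tumours, 18-fold within Trp53ΔIEC and 10.1-fold within Trp53ΔIECAktE17K. Both groups thus held tumours rich and poor in Cd3e, the ranges overlapped, and the means were 5.04 ± 5.06 CPM (SD, n = 4) in Trp53ΔIEC and 2.31 ± 1.98 CPM (SD, n = 4) in Trp53ΔIECAktE17K (log2 fold change -1.12 ± 0.94 (SE), edgeR adjusted p = 0.54). Trac, the constant region of the receptor's alpha chain, on chr14:54220521-54224206, stood at 2.03, 10.4, 7.32 and 2.51 CPM in Trp53ΔIEC replicates 1 to 4 and at 3.01, 1.52, 1.26 and 3.77 CPM in Trp53ΔIECAktE17K replicates 1 to 4. Its high tumours were again Trp53ΔIEC replicates 2 and 3, the groups overlapped, and no difference was called (log2 fold change -1.22 ± 0.62 (SE), edgeR adjusted p = 0.304). Cd3g followed at 1.03, 8.87, 11.8 and 2.05 CPM in Trp53ΔIEC replicates 1 to 4 and at 2.33, 3, 0.336 and 3.73 CPM in Trp53ΔIECAktE17K replicates 1 to 4 (log2 fold change -1.33 ± 0.88 (SE), edgeR adjusted p = 0.432). Cd3d, between 0.168 and 4.8 CPM, and Cd247, the zeta signalling chain, between 0.168 and 4.47 CPM, had the same 3 highest tumours in the order Trp53ΔIEC replicate 3, Trp53ΔIEC replicate 2 and Trp53ΔIECAktE17K replicate 4. Of the exonic bases of Cd247, 56.4% are also annotated to Pou2f1, and how the authors' counting treated them is not stated. Summed over the complex, the level was 4.71 to 40.1 CPM in Trp53ΔIEC and 2.44 to 17.3 CPM in Trp53ΔIECAktE17K.

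The same tumours were high and low in other lymphocyte genes. Trp53ΔIEC replicate 3 held the highest level of 15 of the 29 tested genes and Trp53ΔIEC replicate 2 of 7, whereas over all tested genes these tumours were highest in 11.4% and 8.66%. Trp53ΔIECAktE17K replicate 3 held the lowest level of 20 of the 29, against 20.7% of all genes. In 22 of the 29, Trp53ΔIEC replicates 2 and 3 both lay above replicates 1 and 4, an order found in 16.9% of all tested genes. The exceptions were Cd28, Lck, Eomes, Gata3, Klrd1, Gzma and Gzmb. This order was picked out after the values were seen and carries no test. Markers shared by all leukocytes were also highest in Trp53ΔIEC replicates 2 and 3 within that group: their sums were 285, 558, 748 and 272 CPM in replicates 1 to 4 and 534, 628, 231 and 513 CPM in Trp53ΔIECAktE17K replicates 1 to 4. The part of leukocyte content in the spread of the T cell genes was not tested. Relative to Ptprc, the CD45 antigen of all leukocytes, the log2 ratio of Cd3e was -3.61 ± 0.92 (SD, n = 4) in Trp53ΔIEC and -4.11 ± 0.82 (SD, n = 4) in Trp53ΔIECAktE17K. That difference of -0.50 did not pass (two-sided exact permutation test over 70 assignments, p = 0.457, adjusted over 6 ratios 0.857). The smallest p that 4 tumours against 4 allow is 0.0286, so no ratio could have passed the adjustment over 6 ratios on its own.

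Of the 8 co-receptors and co-stimulatory receptors, 7 were tested and none was called in edgeR, DESeq2 or limma-voom, with 0 at an unadjusted p under 0.05 and a median log2 fold change of -0.75. Cd4, the co-receptor of helper and regulatory T cells (chr6:124864692-124888221), stood at 8.57, 18.3, 24.5 and 6.51 CPM in Trp53ΔIEC replicates 1 to 4 and at 10.4, 4.9, 2.56 and 16.4 CPM in Trp53ΔIECAktE17K replicates 1 to 4. Trp53ΔIEC replicates 2 and 3 and Trp53ΔIECAktE17K replicate 4 were high, and the groups overlapped, with 14.5 ± 8.44 CPM (SD, n = 4) in Trp53ΔIEC and 8.57 ± 6.18 CPM (SD, n = 4) in Trp53ΔIECAktE17K (log2 fold change -0.76 ± 0.63 (SE), edgeR adjusted p = 0.536). Cd8a, which encodes the alpha chain of the co-receptor of cytotoxic T cells (chr6:71373427-71379173), stood at 0.497, 1.28, 6.03 and 0.745 CPM in Trp53ΔIEC replicates 1 to 4 and at 0.974, 1.11, 0.336 and 1.4 CPM in Trp53ΔIECAktE17K replicates 1 to 4. A single tumour, Trp53ΔIEC replicate 3, was far above the others, and without it the log2 fold change of -1.15 became 0.15. Per kilobase of exon, Cd4 averaged 2.86 and Cd8a 0.425 CPM per kb over the 8 tumours. This scale divides by all annotated exon bases of a gene, so it compares genes only roughly and depends on the annotation. The log2 ratio of Cd8a to Cd4 was -3.14 ± 0.85 (SD, n = 4) in Trp53ΔIEC and -2.85 ± 0.65 (SD, n = 4) in Trp53ΔIECAktE17K, a difference of 0.29 (exact permutation p = 0.629, adjusted 0.857). Cd8b1, the beta chain found on conventional cytotoxic T cells, was too low to be tested, at 0.084 to 0.885 CPM.

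The remaining receptors followed the Cd3e order to different degrees. Icos, a co-stimulatory receptor of activated T cells, stood at 2.41, 9.93, 8.66 and 1.35 CPM in Trp53ΔIEC replicates 1 to 4 and at 2.96, 2.39, 0.798 and 5.77 CPM in Trp53ΔIECAktE17K replicates 1 to 4. Cd6, an adhesion receptor, ranged from 1.3 to 7.6 CPM, and Cd5, which dampens receptor signals, from 0.504 to 4.86 CPM. Both were highest in Trp53ΔIEC replicate 3 and had overlapping groups. Cd2, an adhesion molecule, had a log2 fold change of -0.15, and Cd28, the main co-stimulatory receptor, of -0.34. Cd28 was an exception to the shared order, with 2.33 CPM in Trp53ΔIEC replicate 4 against 1.2 CPM in replicate 2, and was highest in Trp53ΔIECAktE17K replicate 4 at 3.73 CPM.

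Among the 3 signalling genes, none was called in edgeR, DESeq2 or limma-voom, with 0 at an unadjusted p under 0.05. The 3 differed in how far they followed the receptor. Lat, the adaptor that gathers signalling proteins at the membrane, stood at 3.52, 7.37, 10.1 and 2 CPM in Trp53ΔIEC replicates 1 to 4 and at 2.62, 2.72, 1.18 and 4.14 CPM in Trp53ΔIECAktE17K replicates 1 to 4. It was high where Cd3e was high, in Trp53ΔIEC replicates 2 and 3, and its groups overlapped (log2 fold change -1.11 ± 0.57 (SE), edgeR adjusted p = 0.31). Lck, the kinase that starts receptor signalling, stood at 15.5, 14.4, 16.6 and 8.38 CPM in Trp53ΔIEC replicates 1 to 4 and at 17.2, 21.2, 14.6 and 11.6 CPM in Trp53ΔIECAktE17K replicates 1 to 4. Its levels lay within 8.38 to 21.2 CPM in all 8 tumours, the highest was Trp53ΔIECAktE17K replicate 2, and the tumour lowest in Cd3e, Trp53ΔIECAktE17K replicate 3, still had 14.6 CPM. The log2 fold change of Lck was 0.24 ± 0.28 (SE), with an edgeR adjusted p of 0.674. Its within-group standard deviation on the log2 scale was 0.41, against 1.56 for Cd3e. Per kilobase of exon, Lck averaged 5.1 CPM per kb and Cd3e 0.9.

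Zap70, the kinase that binds the engaged receptor, stood at 9.76, 24.8, 16.5 and 12.1 CPM in Trp53ΔIEC replicates 1 to 4 and at 15.2, 1.52, 0.504 and 8.34 CPM in Trp53ΔIECAktE17K replicates 1 to 4. It spanned 49.2-fold over the 8 tumours, with Trp53ΔIECAktE17K replicates 2 and 3 far below the other 6. In Trp53ΔIEC replicate 1, where Cd3e was at 0.651 CPM, Zap70 was at 9.76 CPM. The groups overlapped, with 15.8 ± 6.61 CPM (SD, n = 4) in Trp53ΔIEC and 6.39 ± 6.82 CPM (SD, n = 4) in Trp53ΔIECAktE17K (log2 fold change -1.31 ± 0.89 (SE), edgeR adjusted p = 0.443).

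The cytokine receptor chains showed no call among 3 genes in edgeR, DESeq2 or limma-voom, with 0 at an unadjusted p under 0.05. Il2ra, the alpha chain that gives the interleukin-2 receptor high affinity and is abundant on regulatory T cells, stood at 1.99, 11.7, 9.89 and 2.23 CPM in Trp53ΔIEC replicates 1 to 4 and at 4.4, 3.09, 0.714 and 6.01 CPM in Trp53ΔIECAktE17K replicates 1 to 4 (log2 fold change -0.86 ± 0.77 (SE), edgeR adjusted p = 0.569). Il2rb, the beta chain shared by the receptors for interleukins 2 and 15, stood at 1.91, 12.4, 12.4 and 2.19 CPM in Trp53ΔIEC replicates 1 to 4 and at 3.73, 2.72, 0.756 and 6.57 CPM in Trp53ΔIECAktE17K replicates 1 to 4 (log2 fold change -1.07 ± 0.81 (SE), edgeR adjusted p = 0.494). Both were high in Trp53ΔIEC replicates 2 and 3, and in each the groups overlapped. Il7r, the receptor for a cytokine that keeps resting T cells alive, was the one chain of the 3 with a positive estimate (log2 fold change 0.49 ± 0.59, edgeR adjusted p = 0.685), and its highest level was in Trp53ΔIECAktE17K replicate 4, at 12.9 CPM.

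Of the 4 lineage transcription factors, 3 were tested and none was called in edgeR, DESeq2 or limma-voom, with 0 at an unadjusted p under 0.05. Foxp3, the factor of regulatory T cells (chrX:7573644-7595245), stood at 2.33, 5.04, 5.25 and 1.58 CPM in Trp53ΔIEC replicates 1 to 4 and at 3.51, 1.89, 0.588 and 4.84 CPM in Trp53ΔIECAktE17K replicates 1 to 4. Trp53ΔIEC replicates 2 and 3 and Trp53ΔIECAktE17K replicate 4 were again highest and the groups overlapped, with 3.55 ± 1.87 CPM (SD, n = 4) in Trp53ΔIEC and 2.71 ± 1.86 CPM (SD, n = 4) in Trp53ΔIECAktE17K (log2 fold change -0.39 ± 0.65 (SE), edgeR adjusted p = 0.776). Other annotated genes share part of the Foxp3 exons, among them Flicr (18.6% of its exonic bases) and Ccdc22 (12.9%). Relative to Cd3e, the log2 level of Foxp3 was 0.06 ± 1.19 (SD, n = 4) in Trp53ΔIEC and 0.29 ± 0.30 (SD, n = 4) in Trp53ΔIECAktE17K, a difference of 0.23 (exact permutation p = 0.686, adjusted 0.857). Without Trp53ΔIEC replicate 3 that difference was -0.17.

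Eomes, a factor of cytotoxic T cells and NK cells, stood at 5.13, 3.65, 1.17 and 5.54 CPM in Trp53ΔIEC replicates 1 to 4 and at 0.889, 2.63, 5.25 and 2.61 CPM in Trp53ΔIECAktE17K replicates 1 to 4. Its order differed from that of Cd3e: the tumours with the least Cd3e, Trp53ΔIECAktE17K replicate 3 and Trp53ΔIEC replicate 1, were among its 3 highest, and Trp53ΔIEC replicate 3 had only 1.17 CPM (log2 fold change -0.45 ± 0.61 (SE), edgeR adjusted p = 0.723). Gata3, a factor of type 2 helper cells that epithelial cells can express too, ranged from 1.3 to 16.3 CPM and was highest in Trp53ΔIECAktE17K replicate 4 (log2 fold change 0.35 ± 0.69 (SE), edgeR adjusted p = 0.812). Tbx21, the factor of type 1 helper cells and many NK cells, reached at most 0.782 CPM and was not tested.

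NK receptors were at the lower end of the scale. Of 4 genes 3 were tested and none was called in edgeR, DESeq2 or limma-voom, with 0 at an unadjusted p under 0.05. Klrb1c, the NK1.1 antigen in strains that carry it, stood at 0.115, 1.54, 1.17 and 0.186 CPM in Trp53ΔIEC replicates 1 to 4 and at 0.635, 0.576, 0.546 and 0.279 CPM in Trp53ΔIECAktE17K replicates 1 to 4 (log2 fold change -0.55 ± 0.76 (SE), edgeR adjusted p = 0.726). Klrd1, CD94, which pairs with NKG2 proteins to read class I molecules on other cells, stood at 0.0383, 0.226, 1.56 and 0.512 CPM in Trp53ΔIEC replicates 1 to 4 and at 0.72, 0.658, 0.168 and 0.373 CPM in Trp53ΔIECAktE17K replicates 1 to 4. Its highest level was in Trp53ΔIEC replicate 3, and without that tumour its log2 fold change of -0.23 became 0.89. Klrk1 encodes NKG2D, an activating receptor for stress-induced ligands, and averaged 1.52 ± 1.26 CPM (SD, n = 4) in Trp53ΔIEC and 1.51 ± 1.03 CPM (SD, n = 4) in Trp53ΔIECAktE17K (log2 fold change 0.00 ± 0.80 (SE), edgeR adjusted p = 0.999). Its highest tumours were Trp53ΔIEC replicate 3 at 3.13 CPM and Trp53ΔIECAktE17K replicate 2 at 3 CPM.

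Ncr1, the NKp46 receptor of NK cells and related innate lymphocytes, stood at 0.497, 0.338, 0.223 and 0.14 CPM in Trp53ΔIEC replicates 1 to 4 and at 0.0847, 0.123, 0 and 0.0931 CPM in Trp53ΔIECAktE17K replicates 1 to 4. In CPM all Trp53ΔIEC tumours lay above all Trp53ΔIECAktE17K tumours, but the nearest pair, Trp53ΔIEC replicate 4 and Trp53ΔIECAktE17K replicate 2, had 3 reads each and differed through the library scaling alone. A separation with the Akt group below was found for 5.88% of all tested genes. The Trp53ΔIEC tumours held 29 reads in all and the Trp53ΔIECAktE17K tumours 7, too few for the test. When the filter on low counts was dropped, its log2 fold change was -1.94, with an unadjusted edgeR p of 0.0249 and an adjusted p of 0.211. Relative to Cd3e, the log2 level of Ncr1 differed by -0.39 between the groups (exact permutation p = 0.857, adjusted 0.857).

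The 6 cytotoxic effectors hold the gene that differed. Gzma (ENSMUSG00000023132, chr13:113093825-113100981, minus strand) and Gzmb (chr14:56258838-56262260, minus strand) encode granzymes A and B and differed in their pattern over the tumours. Their promoters are shown for that contrast, together with that of Mcpt1, a mast cell protease gene of the cluster in which Gzmb lies. They are the 250 bases upstream of the start sites in RefSeq on GRCm38.p6, at chr13:113100982-113101231 (minus strand) for Gzma, chr14:56262335-56262584 (minus strand) for Gzmb and chr14:56017714-56017963 (plus strand) for Mcpt1, each on the gene's own strand, and capitals mark the same 5 motifs.
Gzma: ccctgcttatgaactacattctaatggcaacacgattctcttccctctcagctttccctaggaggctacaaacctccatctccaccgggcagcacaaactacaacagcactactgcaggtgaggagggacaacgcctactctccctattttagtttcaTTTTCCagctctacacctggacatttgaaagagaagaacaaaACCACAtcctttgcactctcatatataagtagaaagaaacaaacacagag
Gzmb: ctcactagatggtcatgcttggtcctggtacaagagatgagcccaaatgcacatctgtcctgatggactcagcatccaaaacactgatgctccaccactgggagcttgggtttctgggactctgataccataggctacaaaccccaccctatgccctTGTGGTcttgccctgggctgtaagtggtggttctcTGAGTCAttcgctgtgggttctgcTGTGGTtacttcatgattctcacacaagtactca
Mcpt1: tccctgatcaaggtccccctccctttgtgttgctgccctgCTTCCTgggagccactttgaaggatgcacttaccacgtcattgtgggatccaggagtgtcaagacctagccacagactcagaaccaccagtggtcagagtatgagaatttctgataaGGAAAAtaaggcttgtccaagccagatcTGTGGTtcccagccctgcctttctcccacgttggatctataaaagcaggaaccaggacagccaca
The RUNX letters occurred 2 times in the Gzmb window and 1 time each in those of Gzma and Mcpt1. A stretch soon after the RefSeq start was found in 0 GENCODE transcripts of Gzmb, 2 of Gzma and 1 of Mcpt1. The Gzmb window begins at 56262335, beyond the gene end at 56262260 in GENCODE, so its matches depend on the RefSeq start. Gzmb also held the AP-1 letters, Gzma the NFAT letters, and Mcpt1 the NFAT and ETS letters, each at 1 place.

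Gzma stood at 0.23, 0.489, 0.838 and 1.95 CPM in Trp53ΔIEC replicates 1 to 4 and at 9.06, 9.22, 14.7 and 2.65 CPM in Trp53ΔIECAktE17K replicates 1 to 4. Every Trp53ΔIECAktE17K tumour lay above every Trp53ΔIEC tumour, the nearest pair being 2.65 CPM in Trp53ΔIECAktE17K replicate 4 and 1.95 CPM in Trp53ΔIEC replicate 4. The means were 0.878 ± 0.76 CPM (SD, n = 4) in Trp53ΔIEC and 8.9 ± 4.91 CPM (SD, n = 4) in Trp53ΔIECAktE17K, with a log2 fold change of 3.34 ± 0.75 (SE) and an edgeR adjusted p of 0.0472. Among the 29 tested genes Gzma was the 1 without overlap between the groups, against 14.2% of all tested genes (8.34% with the Akt group above and 5.88% with it below).

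Gzma was highest in the tumour where the T cell receptor genes were lowest, Trp53ΔIECAktE17K replicate 3. Within Trp53ΔIECAktE17K its level fell in the order of replicates 3, 2, 1 and 4, the reverse of the order of Cd3e. Within Trp53ΔIEC the order was not reversed: replicate 1 was lowest in both Gzma (0.23 CPM) and Cd3e (0.651 CPM). These orders were picked out after the values were seen and carry no test. The log2 ratio of Gzma to Cd3e was -1.19, -3.40, -3.66 and 0.25 in Trp53ΔIEC replicates 1 to 4. The Akt group had 1.97, 2.64, 4.61 and -0.91 in the same order. Replicate 4 of each group thus lay inside the other group's range. The difference in ratio, 4.08, had an exact permutation p of 0.0571 (adjusted over 6 ratios 0.343). With these group sizes no single ratio could have passed that adjustment on its own.

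The call of Gzma was close to the threshold. It was kept without Trp53ΔIECAktE17K replicate 4 (edgeR adjusted p = 0.028) and lost without any one of the other 7 tumours, with adjusted p between 0.0686 and 0.131 and log2 fold changes of 3.01 to 4.10 over the 8 removals. With the title letter as a term its log2 fold change was 3.31 and its adjusted p 0.163. Smooth muscle marker sums separated the genotypes as well (261 to 439 and 1060 to 1726 CPM), and the part of cell composition in the Gzma level was not tested.

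**Figure D2:**
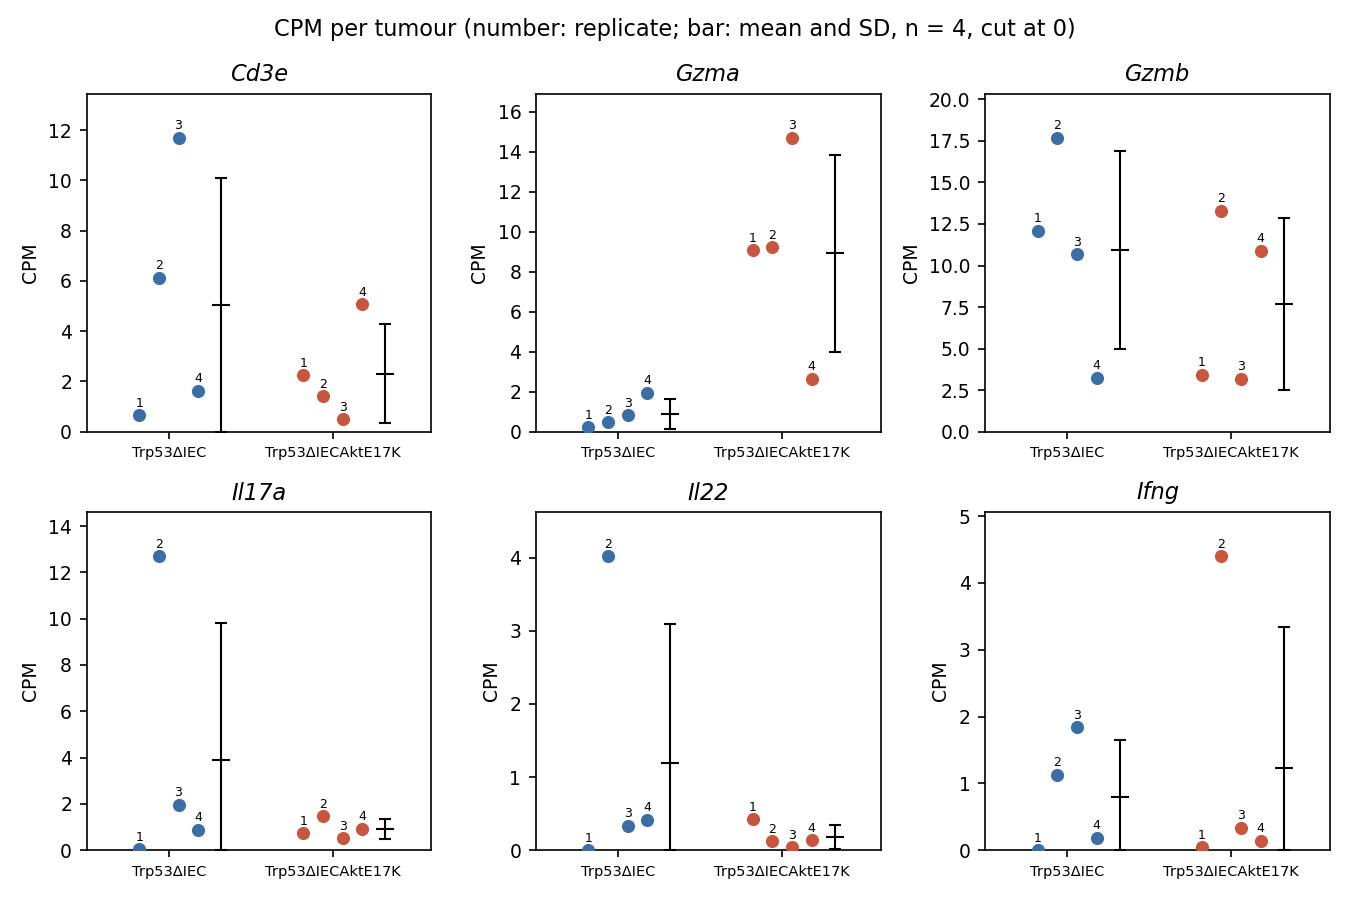
CPM of Cd3e, both granzyme genes and 3 cytokine genes in each tumour, 1 panel per gene, with points numbered by replicate, the horizontal line at the mean and the bar giving the SD over 4 tumours, cut at 0. Gzma separates the groups (0.23 to 1.95 CPM against 2.65 to 14.7 CPM), whereas in the other panels the groups overlap.

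Gzmb stood at 12.1, 17.7, 10.7 and 3.26 CPM in Trp53ΔIEC replicates 1 to 4 and at 3.43, 13.3, 3.19 and 10.9 CPM in Trp53ΔIECAktE17K replicates 1 to 4. It was low, between 3.19 and 3.43 CPM, in Trp53ΔIEC replicate 4 and Trp53ΔIECAktE17K replicates 1 and 3, and between 10.7 and 17.7 CPM in the other 5. The groups overlapped, with 10.9 ± 5.95 CPM (SD, n = 4) in Trp53ΔIEC and 7.69 ± 5.16 CPM (SD, n = 4) in Trp53ΔIECAktE17K (log2 fold change -0.51 ± 0.62 (SE), edgeR adjusted p = 0.689). Per exon length, Gzmb was the most abundant of the 36 genes in Trp53ΔIEC, with a mean of 7.61 CPM per kb, ahead of Trac at 5.95 and Zap70 at 5.28. In Trp53ΔIECAktE17K it came after Gzma (8.84 CPM per kb) and Lck (5.52) with 5.36 CPM per kb. The log2 ratio of Gzmb to Cd3e was 1.59 ± 1.76 (SD, n = 4) in Trp53ΔIEC and 1.82 ± 1.19 (SD, n = 4) in Trp53ΔIECAktE17K (difference 0.23, exact permutation p = 0.857, adjusted 0.857).

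Granzyme B is known from mast cells as well as from lymphocytes, and mast cell markers were present in these tumours. The 9 listed markers summed to 1475, 774, 922 and 120 CPM in Trp53ΔIEC replicates 1 to 4. In the Akt group the sums were 149, 390, 302 and 303 CPM. Of the 9 markers 0 were called in edgeR, 2 had an unadjusted p under 0.05, DESeq2 called Kit higher and limma-voom called none. For 6 proteases of the list, chosen after the values were seen (Cpa3, Mcpt1, Mcpt2, Mcpt4, Tpsb2 and Cma1), the sums were 1418, 751, 896 and 111 CPM in Trp53ΔIEC replicates 1 to 4 and 105, 329, 9.2 and 273 CPM in Trp53ΔIECAktE17K replicates 1 to 4. The 3 tumours lowest in Gzmb had the 3 lowest of these sums, but single markers of the list did not all follow. Kit, a receptor that interstitial cells of the gut wall carry too, was highest, at 292 CPM, in Trp53ΔIECAktE17K replicate 3, where Gzmb was lowest. Ms4a2, a chain of the IgE receptor, was higher in Trp53ΔIECAktE17K replicate 1 (1.9 CPM) than in replicate 2 (0.535 CPM), and Tpsb2 was at 41.3 CPM in that replicate 1 against 24.7 and 37.7 CPM in replicates 2 and 4. Fcer1a, another chain of that receptor, was lowest in the same 3 tumours as Gzmb, at 1.54, 1.31 and 0.21 CPM in Trp53ΔIEC replicate 4 and Trp53ΔIECAktE17K replicates 1 and 3. Trp53ΔIEC replicate 1, with the lowest Cd3e but for Trp53ΔIECAktE17K replicate 3, was highest in the protease sum and had 12.1 CPM of Gzmb. The part of mast cells in the Gzmb level was not tested. On chromosome 14 Gzmb lies 24.2 kb from Gzmc, 197 kb from Mcpt4 and 314 kb from Cma1.

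**Figure D3:**
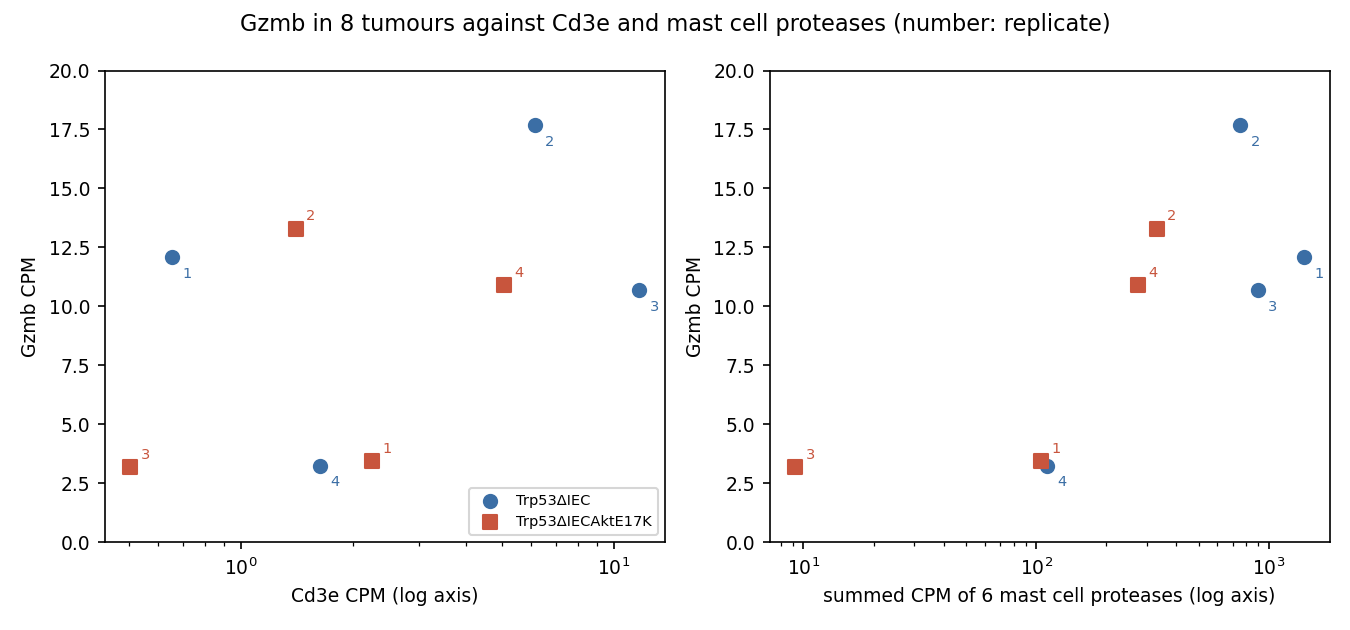
Gzmb CPM in the 8 tumours against Cd3e CPM (left, log axis) and against the summed CPM of 6 mast cell proteases chosen after the values were seen (right, log axis), numbered by replicate. The 3 tumours with 3.19 to 3.43 CPM of Gzmb have the lowest of these sums, which leave out Kit (highest in Trp53ΔIECAktE17K replicate 3), and on the left Trp53ΔIEC replicate 1 combines low Cd3e with 12.1 CPM of Gzmb.

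Prf1, perforin, stood at 0, 0.827, 0.335 and 0.186 CPM in Trp53ΔIEC replicates 1 to 4 and at 0.55, 1.07, 0.588 and 0.792 CPM in Trp53ΔIECAktE17K replicates 1 to 4. No read of it was found in Trp53ΔIEC replicate 1, the groups overlapped and no difference was called (log2 fold change 1.13 ± 0.81 (SE), edgeR adjusted p = 0.47). Per exon length Prf1 averaged 0.21 CPM per kb, so that the pore-forming protein's message was scarce beside those of both granzymes. Nkg7, a granule membrane protein, ranged from 0.186 to 2.46 CPM and was highest in Trp53ΔIEC replicate 3 (log2 fold change 0.14 ± 0.80 (SE), edgeR adjusted p = 0.943). Fasl, the ligand that triggers death through FAS, reached at most 0.37 CPM and was not tested. Gzmk, granzyme K, had 0 reads in all 8 tumours out of 185243165 assigned reads, which allows a level of up to 0.0162 CPM (3 reads, counting error only).

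The effector cytokines were each high in a single tumour. Il17a, the cytokine of type 17 helper cells and of many gamma delta T cells, stood at 0.0383, 12.7, 1.96 and 0.884 CPM in Trp53ΔIEC replicates 1 to 4 and at 0.72, 1.48, 0.504 and 0.931 CPM in Trp53ΔIECAktE17K replicates 1 to 4. Trp53ΔIEC replicate 2 was the high one and the groups overlapped. The log2 fold change of Il17a was -2.09 ± 1.21 (SE, edgeR adjusted p = 0.366), and without that tumour it was -0.06. Il22, which acts on epithelium to promote repair and defence, had 107 reads in the same tumour and 0 to 10 reads in each of the others. Ifng, interferon gamma, the type 1 cytokine of T cells and NK cells, stood at 0, 1.13, 1.84 and 0.186 CPM in Trp53ΔIEC replicates 1 to 4 and at 0.0423, 4.4, 0.336 and 0.14 CPM in Trp53ΔIECAktE17K replicates 1 to 4. Its highest tumour was Trp53ΔIECAktE17K replicate 2, with 107 reads. Trp53ΔIEC replicates 2 and 3 had 30 and 33 reads, and the other tumours 0 to 8. Neither Il22 nor Ifng passed the filter for the test, and neither group of tumours was uniformly high.

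**Figure D4:**
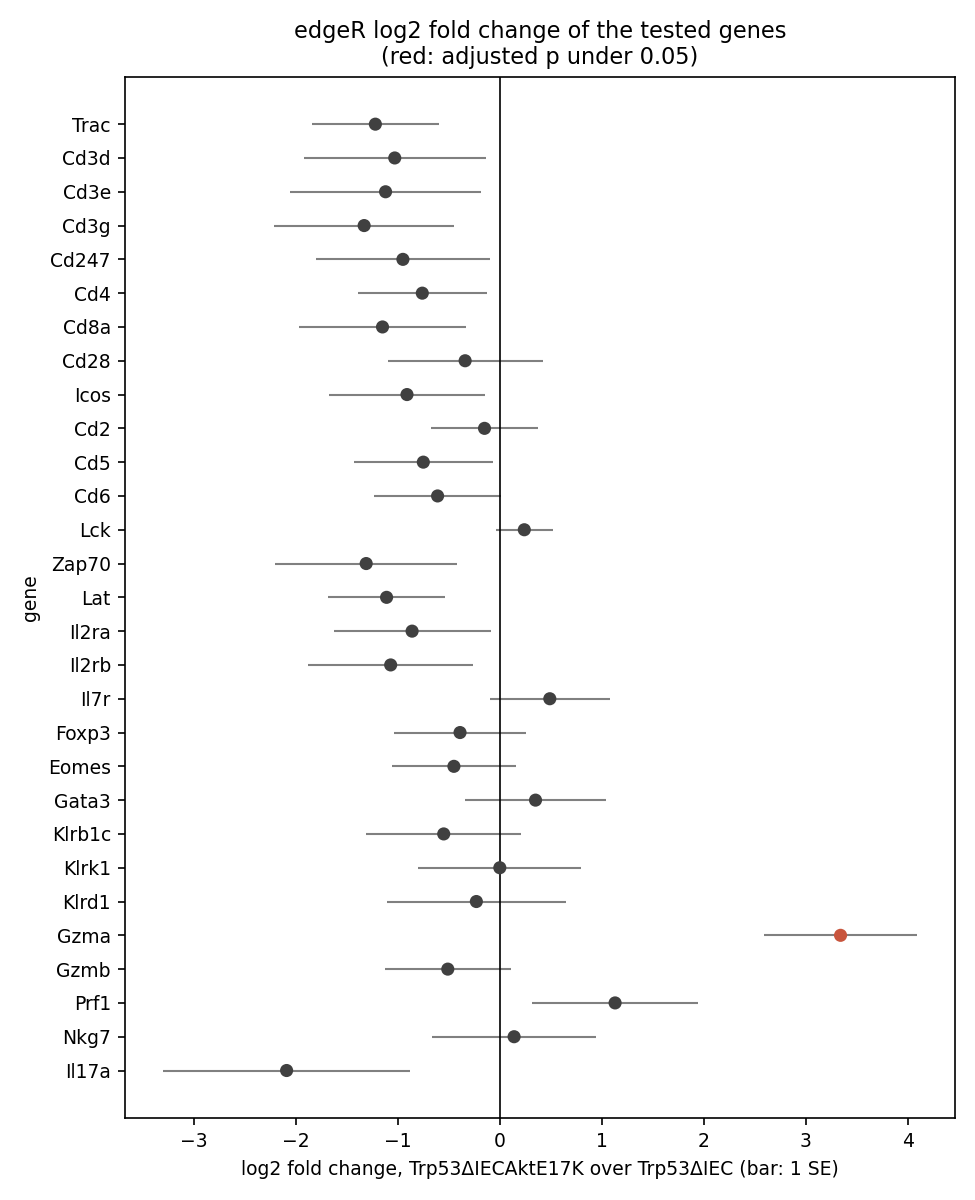
Log2 fold change (Trp53ΔIECAktE17K over Trp53ΔIEC) of the 29 tested genes, with bars of 1 standard error, ordered by role. Gzma, at 3.34, is the 1 gene with an adjusted p under 0.05, and 7 of the 29 estimates are above 0.

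Over the 29 genes the median log2 fold change was -0.61 and 7 estimates were positive, whereas over all tested genes the median was 0.01 and 8448 of 16539 were positive. These genes share their tumours and are not independent replicates of the comparison. Each of the negative estimates was smaller in size than 2 of its standard errors.

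Genes that work with these 36 were taken from 8 further lists. Of 25 other T cell genes 20 were tested, and 0 were called in edgeR, 1 having an unadjusted p under 0.05. Thy1, a surface antigen of mouse T cells that stromal cells carry as well, stood at 8.3, 13.8, 18.6 and 6.51 CPM in Trp53ΔIEC replicates 1 to 4 and at 65.2, 55.7, 24.8 and 23.8 CPM in Trp53ΔIECAktE17K replicates 1 to 4. All Trp53ΔIECAktE17K tumours were above all Trp53ΔIEC tumours (log2 fold change 1.84 ± 0.46 (SE), edgeR adjusted p = 0.0643), DESeq2 called the gene (adjusted p = 0.00228) and limma-voom did not. Such a separation, with the Akt group above, was found for 8.34% of all tested genes. Its highest tumours, Trp53ΔIECAktE17K replicates 1 and 2, were not those of Cd3e. With the title letter as a term the log2 fold change of Thy1 was 1.04. That estimate does not draw on Trp53ΔIECAktE17K replicates 1 and 2, its highest tumours.

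Among 9 tested genes linked to regulatory T cells, 1 was called higher, against 3.44% of all tested genes. The same 1 gene had an unadjusted edgeR p under 0.05, against 20.8% of all. Lrrc32 encodes GARP, which holds latent TGF-beta on regulatory T cells and is also made by endothelium (ENSMUSG00000090958, chr7:98489283-98502181). It stood at 13.2, 9.63, 11.5 and 12 CPM in Trp53ΔIEC replicates 1 to 4 and at 61.8, 35.4, 37.1 and 29 CPM in Trp53ΔIECAktE17K replicates 1 to 4, with no overlap and a 3.53-fold difference between the groups (log2 fold change 1.82 ± 0.25 (SE), edgeR adjusted p = 0.0142). Groups without overlap, with the Akt group above, were found for 8.34% of all tested genes. Foxp3 in the same tumours had a log2 fold change of -0.39. Fibroblast markers summed to 2244 to 3456 CPM in Trp53ΔIEC and 4274 to 7025 CPM in Trp53ΔIECAktE17K, endothelial markers to 170 to 313 and 249 to 457 CPM, and smooth muscle markers to 261 to 439 and 1060 to 1726 CPM. The part of stromal cells in the levels of Thy1 and Lrrc32 was not tested. The call of Lrrc32 was lost without Trp53ΔIEC replicates 2, 3 or 4 (edgeR adjusted p = 0.0596, 0.0573 and 0.0638) as well as with the letter term (0.0593) and in the letter B tumours only (0.083).

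The list of NKG2D and death receptor ligands and of cytokine receptors on target cells had 1 of 12 tested genes called higher. Of all tested genes 3.44% were called higher, and 8.34% had the Akt group above without overlap. At an unadjusted edgeR p under 0.05 the list had 4 of 12, against 20.8% of all. H60c, a ligand of NKG2D that skin epithelium is known to make (ENSMUSG00000091618, chr10:3256208-3267771), stood at 0.574, 0.714, 1.84 and 0.884 CPM in Trp53ΔIEC replicates 1 to 4 and at 18.3, 2.22, 33.6 and 16.9 CPM in Trp53ΔIECAktE17K replicates 1 to 4. The groups did not overlap, although Trp53ΔIECAktE17K replicate 2 lay near the Trp53ΔIEC range, and the difference was 17.8-fold (log2 fold change 4.15 ± 0.80 (SE), edgeR adjusted p = 0.0305). Raet1d, another NKG2D ligand, stood at 0.344, 0.451, 0.279 and 0.465 CPM in Trp53ΔIEC replicates 1 to 4 and at 1.19, 1.65, 2.65 and 0.605 CPM in Trp53ΔIECAktE17K replicates 1 to 4, without overlap (log2 fold change 1.96 ± 0.47 (SE), edgeR adjusted p = 0.0576). H60b, a further ligand gene that was too low for the test, had 0.0383, 0.301, 0.223 and 0.372 CPM without the Akt allele (Trp53ΔIEC) and 1.57, 0.329, 3.95 and 2.33 CPM with it (Trp53ΔIECAktE17K). Raet1e and Ulbp1, further ligands, had log2 fold changes of -0.45 (edgeR adjusted p = 0.597) and -0.11 (0.899). Raet1d, H60b, Raet1e and Ulbp1 are named after their values were seen. DESeq2 called H60b, H60c and Raet1d higher and Ifngr2 and Il22ra1 lower, and limma-voom called none of the list. The call of H60c was kept without Trp53ΔIECAktE17K replicates 2, 3 or 4 and lost without any of the other 5 tumours, with adjusted p between 0.0686 and 0.101. The letter term gave 0.0683 and the letter B tumours alone 0.0543. Klrk1, the receptor, had a log2 fold change of 0.00 ± 0.80 (SE).

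**Figure D5:**
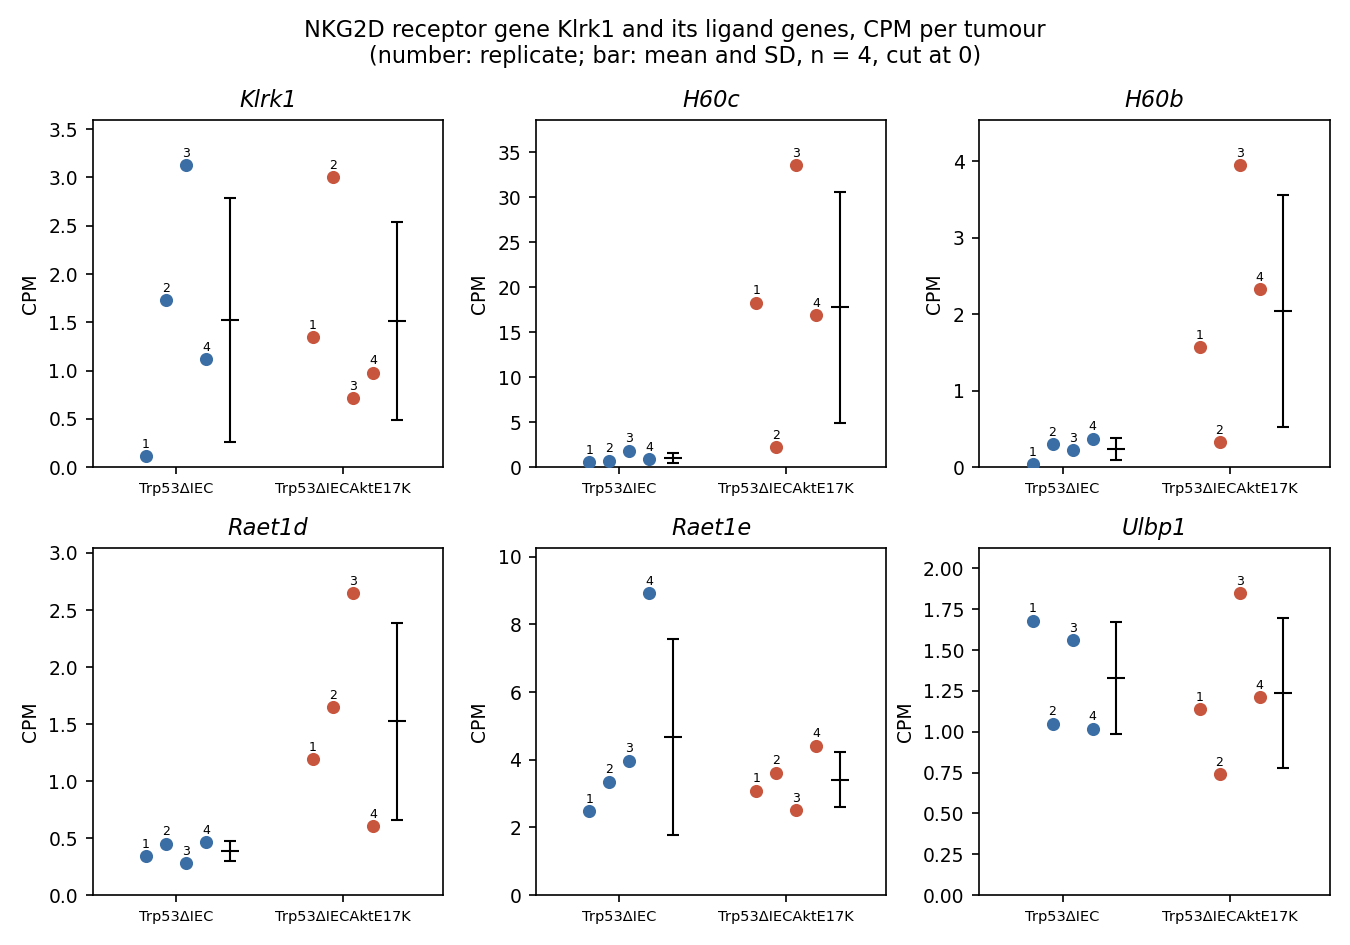
CPM of the receptor gene Klrk1 and of NKG2D ligand genes in each tumour, 1 panel per gene, with points numbered by replicate, the line at the mean and the bar giving the SD over 4 tumours, cut at 0. H60c lies at 0.574 to 1.84 CPM in Trp53ΔIEC and 2.22 to 33.6 CPM in Trp53ΔIECAktE17K, whereas the Klrk1 groups overlap.

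The gamma delta and innate-like T cell list had 7 tested genes, 0 called in edgeR and 0 with an unadjusted p under 0.05. Il17f, the close relative of Il17a, stood at 0, 4.89, 1.96 and 0.745 CPM in Trp53ΔIEC replicates 1 to 4 and at 0.423, 0.494, 0.21 and 0.326 CPM in Trp53ΔIECAktE17K replicates 1 to 4. As with Il17a and Il22, the highest level was in Trp53ΔIEC replicate 2 (log2 fold change -2.37 ± 1.12 (SE), edgeR adjusted p = 0.272), and without that tumour the log2 fold change was -1.27. Tcrg-C1, a constant region of the gamma chain, had 3.2 and 2.74 CPM in Trp53ΔIEC replicates 2 and 3 and at most 0.558 CPM in the other 6 tumours. Tcrg-C2 and Tcrg-C4 had 1.2 to 1.96 CPM in those replicates and at most 0.326 CPM elsewhere. These 3 genes were too low for the edgeR test and are named after their values were seen. DESeq2 called Tcrg-C4 lower, and limma-voom called none of the list.

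Among other NK cell genes 0 of 7 tested were called in edgeR, 2 with an unadjusted p under 0.05. Ccl5, a chemokine that cytotoxic cells release, stood at 0.804, 3.35, 3.3 and 1.91 CPM in Trp53ΔIEC replicates 1 to 4 and at 10.9, 57.4, 2.27 and 4 CPM in Trp53ΔIECAktE17K replicates 1 to 4. Trp53ΔIECAktE17K replicate 2, the tumour highest in Ifng, was far above the rest, and the groups overlapped (log2 fold change 2.99 ± 1.04 (SE), edgeR adjusted p = 0.148). DESeq2 called Ccl5 (adjusted p = 0.0133) and limma-voom did not. Without that tumour its log2 fold change was 1.28. With the letter term it was 0.42, an estimate that does not draw on Trp53ΔIECAktE17K replicates 1 and 2 (10.9 and 57.4 CPM).

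Of 12 tested genes among the other granule components, 0 were called in edgeR, DESeq2 or limma-voom, and 1 had an unadjusted p under 0.05. Tnfsf10, the death ligand TRAIL, stood at 19.2, 81.4, 66.7 and 23.5 CPM in Trp53ΔIEC replicates 1 to 4 and at 13.8, 25.3, 2.69 and 19.6 CPM in Trp53ΔIECAktE17K replicates 1 to 4. It was high in Trp53ΔIEC replicates 2 and 3 and lowest in Trp53ΔIECAktE17K replicate 3, with overlap (log2 fold change -1.63 ± 0.70 (SE), edgeR adjusted p = 0.227). Gzmc, a granzyme gene beside Gzmb named after its values were seen, was highest in Trp53ΔIECAktE17K replicate 2 at 6.3 CPM, against 0.14 to 2.63 CPM in the others.

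Of the cytokines that act on these cells 0 of 8 tested were called by edgeR, DESeq2 or limma-voom, and 0 had an unadjusted p under 0.05. Il23a, a subunit of interleukin-23, which sustains type 17 cells, had the smallest p (log2 fold change 0.60 ± 0.35 (SE), edgeR adjusted p = 0.374). Among homing and retention genes 0 of 11 tested were called by any of these tools, and 2 had an unadjusted p under 0.05. S1pr1, the receptor by which T cells leave tissue and which endothelium carries too, had the smallest p, at 25.8, 29.2, 19.8 and 15.8 CPM without the Akt allele (Trp53ΔIEC) and 62.4, 43.6, 27.6 and 32.7 CPM with it (Trp53ΔIECAktE17K) (log2 fold change 0.87 ± 0.30 (SE), edgeR adjusted p = 0.143).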

How the data were processed

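The authors deposited, for each tumour, raw read counts per Ensembl gene without normalisation. The submitters' processing notes name the build mm10 and, with no roles, HTSeq 0.6, STAR 2.3.0, DESeq2 1.8.1, CASAVA 1.8.2 and SAMtools 1.2. Annotation release and strand setting: not given in the sources used here. Per the labels, RNeasy Mini columns gave the RNA and a TruSeq mRNA v2 kit the libraries, without a mark of strand, so reads of genes that overlap on opposite strands cannot be told apart. The 5 closing lines of each table, which name no gene, stayed out of all sums: they put 9.74% to 11.7% of uniquely aligned reads in no feature and 1.93% to 2.32% in more than 1 gene. Of the 38355 identifiers, 36602 (95.4%) took symbols and positions from GENCODE M21 (GRCm38).

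Counts were fitted with edgeR 4.0.16 in R 4.3.3: filterByExpr, TMM scaling, the quasi-likelihood test with robust dispersions, genotype as the only term, and Benjamini-Hochberg adjustment over the 16539 genes tested. A gene was called at an adjusted p under 0.05. Levels are CPM after TMM scaling, and fold changes are Trp53ΔIECAktE17K over Trp53ΔIEC. For 6 gene ratios, the exact two-sided permutation test was run on log2 CPM ratios (0.1 CPM added). Alternatives were DESeq2 1.42.0, limma-voom (limma 3.58.1), other scalings, no low count filter, dispersions without the robust option, the title letter, the replicate number and removal of each tumour. Letter A occurs only in the Akt group, so the letter term leaves the genotype estimate to the letter B tumours.

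The genes and lists were chosen with earlier results of these data known. The rule for naming takes 10 fixed lymphocyte genes, every called gene of the 36, the 2 with the smallest p in each role group, and from each further list the called genes or the 1 with the smallest p.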

Additional observations from a re-analysis of the deposited data

Results flagged for a closer look

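Dixon's test for a value far from the rest of its group was applied to 82 groups of 4 tumours, and 6 were picked out. For independent and normally distributed values chance gives about 1 in 20, or 4.1. The 6 values picked out were CPM without a log transform, some from few reads, and the genes share their tumours. The number 4.1 is therefore only a rough guide. Trp53ΔIEC replicate 3 stood apart within its group in both chains of the CD8 co-receptor, with 6.03 CPM of Cd8a and 0.615 CPM of Cd8b1. The Cd8b1 value rested on 11 reads, against 3 to 4 reads in the rest of its group. Trp53ΔIECAktE17K replicate 4 was higher in Cd8b1, at 0.885 CPM (19 reads). Trp53ΔIEC replicate 2 stood apart in Il17a (12.7 CPM) and Il22 (4.02 CPM), both high, and in Gata3 (2.63 CPM), which was low there. In Trp53ΔIECAktE17K replicate 2, Ifng stood apart at 4.4 CPM.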

How the results depend on the processing

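Gzma was the 1 of the 36 genes called higher under RLE and upper quartile scaling, DESeq2, limma-voom, no low count filter and dispersions without the robust option. The count was 0 with the replicate block, the letter term and the letter B tumours only. The letter term and the letter B subset take their genotype estimate from the same tumours. It ranged from 0 to 1 over the 8 removals, and the count of genes called lower was 0 under all 17 alternatives. The log2 fold change of Gzma with the letter B tumours only was 3.27 (adjusted p = 0.237). Over its 17 alternatives every estimate of Gzma was positive, with removals giving 3.01 to 4.10.

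Over all genes 694 were called, against 2489 by DESeq2, 50 with the replicate block, 96 with the letter term, 26 with the letter B tumours only and 74 to 949 over the removals. Calls in the higher direction made up 82% of the main calls, 69.1% of those by DESeq2, 96% with the replicate block and 93.8% with the letter term. Same-numbered tumours had correlations of their deviations of -0.0393, 0.00829, -0.243 and 0.00928. Differently numbered tumours had -0.242 to 0.25. So few pairs cannot decide whether the numbers pair the tumours, and the labels state no pairing. Under the replicate block the log2 fold change of Gzma was 3.61 (adjusted p = 0.154), H60c an adjusted p of 0.0804 and Lrrc32 of 0.052. For limma-voom the adjusted p of H60c was 0.0905.

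Some estimates changed sign, none of them called. Cd8a ranged from -1.49 to 0.15 over the removals (0.15 without Trp53ΔIEC replicate 3), and Eomes was 0.02 with the letter term. Klrb1c was 0.11 in limma-voom and -0.93 to 0.09 over the removals (0.09 without Trp53ΔIEC replicate 2). Klrd1 was 0.48 in limma-voom, 0.29 with the replicate block and -0.65 to 0.89 over the removals, positive without Trp53ΔIEC replicate 3 (0.89) or Trp53ΔIECAktE17K replicate 3 (0.07). Among log2 ratios, the difference for Ncr1 to Cd3e was 0.35 with 1 CPM added and -1.10 to 0.52 over the removals, positive without Trp53ΔIEC replicate 1 (0.52) or Trp53ΔIECAktE17K replicate 4 (0.05). Foxp3 to Cd3e ranged from -0.17 (without Trp53ΔIEC replicate 3) to 0.78. Gzmb to Cd3e ranged from -0.34 to 1.04, negative without Trp53ΔIEC replicate 3 (-0.34) or Trp53ΔIECAktE17K replicate 2 (-0.22). The cause was not tested. Dropping the filter on low counts gave Cd8b1, Tbx21, Ncr1, Fasl, Ifng and Il22 a test, and their edgeR adjusted p ranged from 0.211 (Ncr1) to 0.839 (Ifng).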
